A study of Mus musculus with 4 samples.

Results

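AP-1 is a dimer of a FOS and a JUN protein, and the EGR proteins are zinc finger factors that often respond to the same signals. The genes described here are the 4 FOS family genes (Fos, Fosb, Fosl1 and Fosl2), the 3 JUN family genes (Jun, Junb and Jund) and the EGR family genes Egr1, Egr2 and Egr3. They were taken by gene symbol, and all 10 were present among the 24346 gene rows of the expression table. Of these, 8 had a mean of at least 1 FPKM (a fragment count scaled to the length of the transcript and to the depth of the library) over the samples and were tested, and Fosb and Egr3 did not reach this level.

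FOS proteins pair only with a partner such as a JUN protein, whereas JUN proteins can also pair with each other and with members of the ATF, BATF, JDP and MAF families. Many of these genes are immediate early genes, which are transcribed within minutes of a growth factor or stress signal through MAP kinases and the serum response factor SRF, before any new protein is made. In bone, Fos is required for osteoclasts to form from macrophage precursors, and Fosl1 and Fosl2 act in osteoblasts and in their matrix production. Egr1 and Egr2 are restrained by the corepressors Nab1 and Nab2.

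RNA was measured in mBMSCs, cells that adhere and grow out of the femoral marrow of C57BL/6 mice (C57BL/6J in the study's methods), here at 3 months of age. A scrambled siRNA (siScr) was delivered to 2 samples and siRNA against ZBP1, a sensor of nucleic acids, to the other 2 (siZBP1), in both groups with Lipofectamine RNAiMAX in serum-containing medium and without an osteogenic or adipogenic stimulus named in the labels. RNA was collected on the third day after transfection. No stimulus shortly before collection is named, and the handling of the cells at harvest is not described. The labels and methods do not say whether the samples of a group came from separate mice or cultures, or which of the study's siRNAs against ZBP1 was used, and the p-values measure only the spread between these samples.

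Zbp1 was at 86.0 and 62.0 FPKM in the siScr samples and at 11.5 and 11.6 FPKM in the siZBP1 samples, or -2.56 on the log2 scale (limma adjusted p = 0.00322). Rough depths, read from the spacing of the lowest values, were 11 to 18 M fragments per sample. Mesenchymal markers ranged from high to low, with Col1a1 between 1128 and 3066 FPKM but Pdgfra between 1.31 and 3.97 FPKM. Thy1 was between 1.48 and 4.49 FPKM. Macrophage markers were also present, with Csf1r between 467 and 584 FPKM and Cd68 between 712 and 890 FPKM in every sample. In bulk RNA, fewer cells of a type and less RNA per cell cannot be told apart.

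To show the kind of element through which these genes are read and regulated, short stretches are given from RefSeq promoter windows of GRCm38.p6, each reaching from 250 bases before to 50 bases after an annotated start. The windows were searched on both strands for the CArG box bound by SRF, the AP-1 site TGANTCA, the CRE site TGACGTCA and the EGR site GCGNGGGCG. No match of one motif overlapped that of another, but the EGR sites hold the letters of a GC box. Windows were given for 7 of the genes (Fos, Fosb, Fosl2, Jun, Junb, Jund and Egr2), 11 windows in all. Elements more than 250 bases before an annotated start were not searched for any gene, and Egr1, Fosl1 and Egr3 had no window. Within the windows, a CArG box was present in those of Egr2 alone and in 1.63% of all 32851 windows. An EGR site was present in those of Fosb and Fosl2 and in 5.55% of all windows. The AP-1 site (7.81% of all windows) and the CRE site (1.79%) had 0 matches in the windows of these genes, which says only that these letters are not there. The first stretch of Egr2 is at chr10:67537484-67537513 and the second at chr10:67537787-67537816, both on the plus strand and in an intron of the annotated transcripts, that of Fosb at chr7:19310076-19310105 on the minus strand, upstream of the annotated transcripts, and that of Fosl2 at chr5:32136383-32136412 on the plus strand, in a noncoding part of an exon. Capitals mark the CArG box or the EGR site, and the lines read from 5′ to 3′:
Egr2 CArG box, first stretch: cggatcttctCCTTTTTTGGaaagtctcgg
Egr2 CArG box, second stretch: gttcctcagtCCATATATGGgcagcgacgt
Fosb EGR site: tgacgcaagcGCGGGGGCGggtcccggagg
Fosl2 EGR site: ccggctgcgcGCGGGGGCGgaagggcgcgc
A match of letters is a description and shows neither binding nor regulation in these cells.

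The data show that these genes did not move together. Egr1 fell 2.26-fold and Fosl1 2.21-fold after ZBP1 depletion, Fosl2 rose 1.30-fold, and the other 5 tested genes, Fos, Jun, Junb, Jund and Egr2, did not pass the test. The comparison asks how the RNA of each factor differed between siZBP1 and siScr cells, and it was made with limma, which fits a linear model to each gene and shares information on the spread between genes, on log2(FPKM + 1) over all 11959 genes with a mean of at least 1 FPKM. Of the 8 tested genes, 2 were called lower at an adjusted p under 0.05, against 14.8% of all tested genes, and 1 was called higher, against 13.5%. Counts this small beside such background shares say nothing about the families as a whole. Their median log2 fold change was 0.04, against 0.0045 over all tested genes. The siScr and siZBP1 values did not overlap for 4 of the 8, against 68.4% of all tested genes. By the ratio of the group means alone, 2 of the 10 genes were over 1.5-fold lower, against 13.8% of 16281 genes above 0 in both groups. By the same ratio 0 were over 1.5-fold higher, against 10.7%. The 16281 genes include genes under 1 FPKM, and the counts at a mean of at least 1 FPKM, given further below, are smaller. The study states a 1.5-fold cut-off for its downregulated genes, and its counts over all genes differ from those behind these shares.

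**Figure D1:**
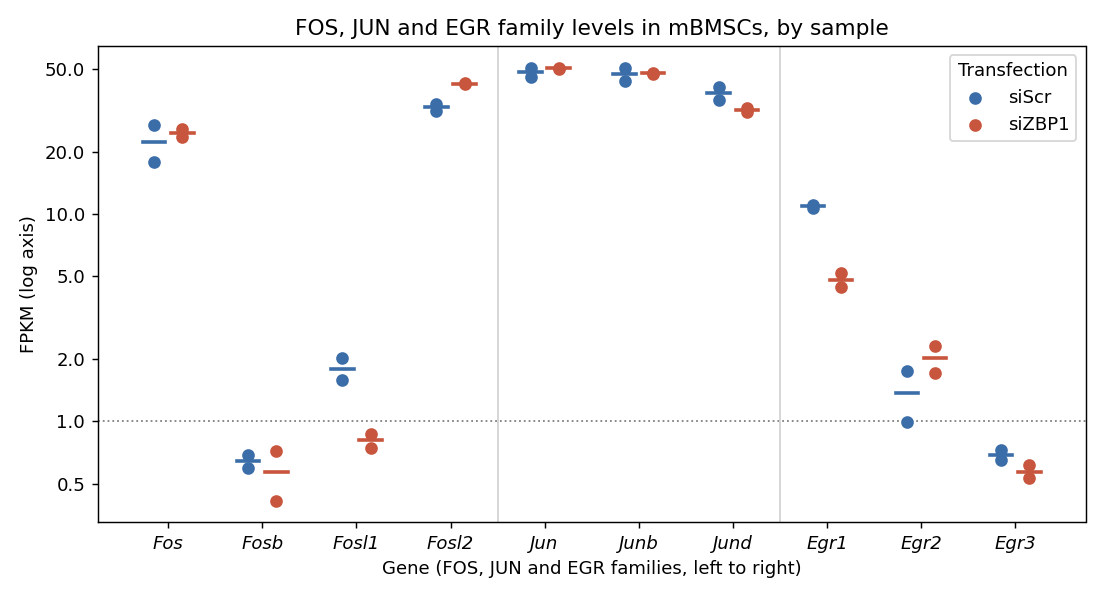
FPKM (log axis) of the 10 genes in each sample, with siScr in blue and siZBP1 in red, points for the 2 samples of a group, bars for their mean and a dotted line at 1 FPKM. Egr1 (10.7 and 11.1 against 4.45 and 5.19) and Fosl1 (2.01 and 1.58 against 0.872 and 0.748) are separate and lower in siZBP1. Fosl2 is separate and higher, and Jun and Junb lie at similar heights near 50 FPKM.

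Among the FOS genes, Fos and Fosl2 made up nearly all of the RNA. Fos, the founding member of the family and the partner of JUN that osteoclast precursors need, lies on chromosome 12 (85473890-85477273 of GRCm38, plus strand). It was at 26.8 and 17.9 FPKM in siScr and 23.5 and 25.7 FPKM in siZBP1 cells, so that both siZBP1 values lay between the siScr values. Its log2 fold change was 0.16 with a 95% interval from -0.35 to 0.67 (limma adjusted p = 0.584), which leaves room for a change in either direction. This value was set by the siScr samples, being 0.44 without siScr replicate 1 and -0.12 without siScr replicate 2.

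Fosb, a close relative of Fos with a strong transactivation domain, lies on chromosome 7 (19302696-19310051, minus strand). It was at 0.691 and 0.596 FPKM in siScr and 0.721 and 0.415 FPKM in siZBP1 cells, which is roughly 28 to 41 fragments per sample. The values overlapped, and at this depth no difference was detectable. With no filter on low values its limma log2 fold change was -0.07 (adjusted p = 0.728).

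Fosl1 encodes FRA-1, which lacks the strong transactivation domain of Fos and Fosb and acts in matrix production by osteoblasts. It lies on chromosome 19 (5447547-5455946, plus strand). It was at 2.01 and 1.58 FPKM in siScr and 0.872 and 0.748 FPKM in siZBP1 cells, or 1.79 ± 0.300 and 0.810 ± 0.0873 (SD, n = 2). Both siZBP1 values were below both siScr values, and the mean was 2.21-fold lower. The log2 fold change was -0.62 (SE 0.14, limma adjusted p = 0.0375). It is one of the lowest genes in the fit, with 3.2% of tested genes below it and roughly 18 to 57 fragments per sample. The call was lost without siScr replicate 1 (adjusted p = 0.0737), without siZBP1 replicate 1 (0.136), without siZBP1 replicate 2 (0.143) and with quantile normalization (0.0638, limma in each case), while the log2 fold change stayed between -0.73 and -0.51 with a sample left out. On the opposite strand, the exons of Ccdc85b cover 1163 of the 2033 exon bases of Fosl1. Ccdc85b was at 6.22 and 5.77 FPKM in siScr and 4.34 and 4.17 FPKM in siZBP1 cells, with a log2 fold change of -0.41 (limma adjusted p = 0.0268). The counting is not stated to use strand, so reads from Fosl1 and Ccdc85b cannot be told apart there, and the value of Fosl1 is uncertain to that extent.

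Fosl2 encodes FRA-2, which is known for promoting osteoblast differentiation and collagen production. It lies on chromosome 5 (32135801-32157842, plus strand), and its promoter window holds the second of the EGR sites shown above. It was at 34.0 and 31.3 FPKM in siScr and 42.2 and 42.6 FPKM in siZBP1 cells, or 32.6 ± 1.92 and 42.4 ± 0.276 (SD, n = 2). Both siZBP1 values were above both siScr values, by 1.30-fold in the mean. On the log2 scale the rise was 0.37 (SE 0.06, limma adjusted p = 0.0143). Without siZBP1 replicate 1 or 2 the limma adjusted p was 0.126 and 0.113, and the log2 fold change stayed between 0.31 and 0.43 with any sample left out.

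Jun and Junb were the highest of the 10 genes. Of the 3 JUN genes 0 passed the test, against 14.8% of all tested genes called lower and 13.5% called higher. Jun, the subunit activated by JUN N-terminal kinases, lies on chromosome 4 (95049034-95052222, minus strand). It was at 50.6 and 45.7 FPKM in siScr and 50.8 and 50.1 FPKM in siZBP1 cells. One siScr value lay inside the siZBP1 range and the other below it. The log2 fold change was 0.07, with a 95% interval from -0.09 to 0.23 (limma adjusted p = 0.457).

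Junb, which is induced by the same signals and often opposes Jun in proliferation, lies on chromosome 8 (84974484-84978718, minus strand). It was at 50.3 and 44.0 FPKM in siScr and 47.2 and 48.0 FPKM in siZBP1 cells, with both siZBP1 values between the siScr values. Its log2 fold change was 0.02, with a 95% interval from -0.18 to 0.21 (limma adjusted p = 0.894). The intervals of Jun and Junb leave out changes as large as those of Egr1 and Fosl1. Without siScr replicate 2 the log2 fold changes were -0.00 for Jun and -0.08 for Junb. Prdx2, on the opposite strand, overlaps 173 of the 2301 exon bases of Junb, and its level was 132 and 138 FPKM in siScr and 185 and 187 FPKM in siZBP1 cells. Antisense RNAs not used here, Junos and Gm11175, cover 232 of 3189 exon bases of Jun and 877 of 1668 of Jund, so the values of the JUN genes may hold reads from the other strand.

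Jund, the family member that is usually expressed without stimulation, lies on chromosome 8 (70698949-70700616, plus strand). It was at 41.0 and 35.5 FPKM in siScr and 32.4 and 31.1 FPKM in siZBP1 cells, or 38.2 ± 3.87 and 31.8 ± 0.900 (SD, n = 2). The groups did not overlap, and the ratio of the means was 0.830, but the log2 fold change of -0.26 (SE 0.08) had a limma adjusted p of 0.0774 and was not called. Leaving out siScr replicate 2 made it a call (-0.36, limma adjusted p = 0.0395), and leaving out siScr replicate 1 did not (-0.16, limma adjusted p = 0.144).

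Of the EGR genes, Egr1 was the highest in every sample and changed most. Egr1, a zinc finger factor induced by serum and mechanical load, was at 10.7 and 11.1 FPKM in siScr and 4.45 and 5.19 FPKM in siZBP1 cells, or 10.9 ± 0.297 and 4.82 ± 0.524 (SD, n = 2). The groups were far apart relative to the spread within them, and the siZBP1 mean was 2.26-fold lower. The log2 fold change was -1.04 (SE 0.09, 95% interval from -1.28 to -0.80, limma adjusted p = 0.00503). It was between -1.13 and -0.94 with any 1 sample left out, and the limma adjusted p was 0.0427 and 0.0346 without siScr replicate 1 and 2 but 0.0748 and 0.0640 without siZBP1 replicate 1 and 2.

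Egr2, which is known from myelinating Schwann cells, from macrophages and as a restraint on osteoclast formation, lies on chromosome 10 (67535475-67542188, plus strand), with the CArG boxes shown above in its promoter windows. It was at 0.994 and 1.74 FPKM in siScr and 1.71 and 2.31 FPKM in siZBP1 cells. The groups overlapped, since siScr replicate 2 was above siZBP1 replicate 1. Its log2 fold change was 0.36 with a 95% interval from -0.20 to 0.91 (limma adjusted p = 0.270). The interval of Egr2 lies above that of Egr1, but the difference between the genes was not tested.

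Egr3, induced by many of the signals that induce Egr1, lies on chromosome 14 (70077203-70082614, plus strand). It was at 0.650 and 0.726 FPKM in siScr and 0.614 and 0.532 FPKM in siZBP1 cells, roughly 27 to 53 fragments per sample. Both siZBP1 values were below both siScr values, but so few fragments separate them poorly. With no filter on low values its limma log2 fold change was -0.10 (adjusted p = 0.424).

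**Figure D2:**
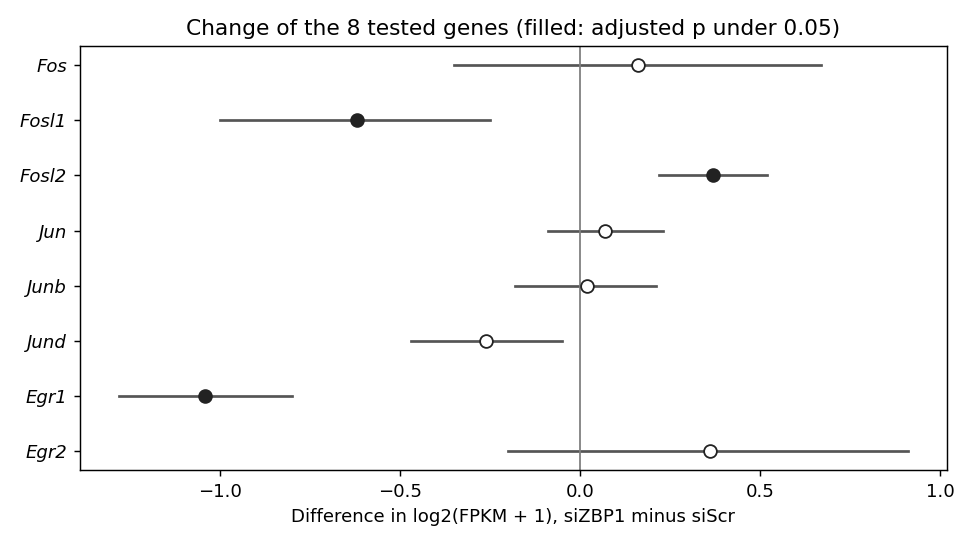
Difference in log2(FPKM + 1), siZBP1 minus siScr, of the 8 tested genes, with 95% intervals from limma and filled points at an adjusted p under 0.05. The intervals of Fosl1 (below -0.25), Fosl2 (0.22 to 0.52) and Egr1 (-1.28 to -0.80) lie on 1 side of 0 and are called, and that of Jund (-0.47 to -0.05) also lies on 1 side but is not called after adjustment.

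Since only 2 samples were in each group, leaving out 1 leaves a lone sample that is assumed to vary like the other group. For 1 gene at a time, the smallest two-sided p of an exact permutation test is 0.333 here. All calls therefore rest on the model of limma, which combines each gene's own spread with the spread shared between genes. Calls over all genes dropped in the same way, to 23 lower and 22 higher without siZBP1 replicate 1, and to 38 lower and 22 higher without siZBP1 replicate 2, from 1766 lower and 1618 higher.

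**Figure D3:**
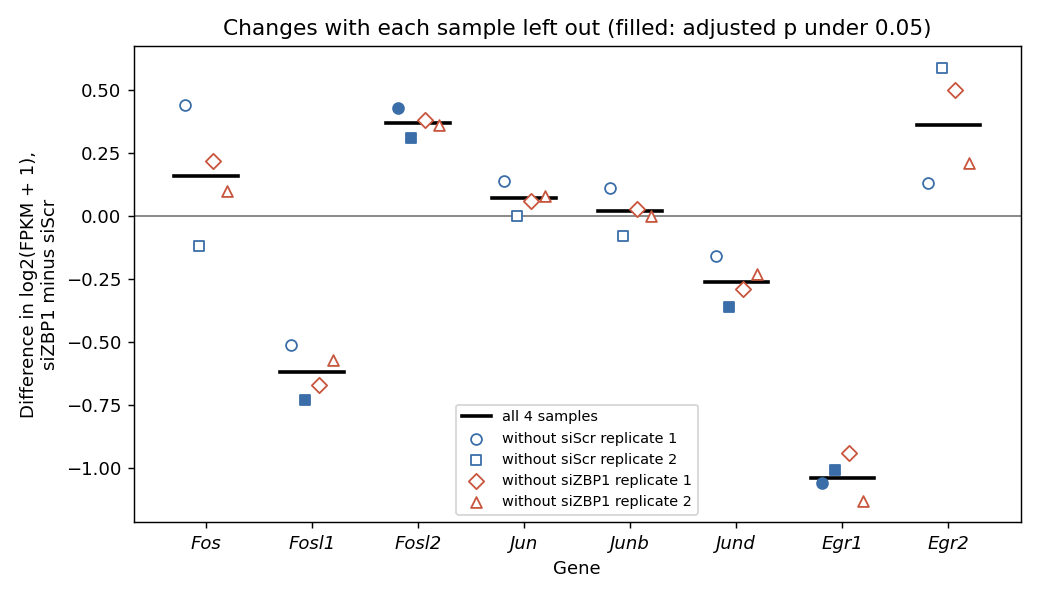
Difference in log2(FPKM + 1), siZBP1 minus siScr, of the 8 tested genes with each sample left out in turn, beside the value from all 4 samples (bars), filled where the limma adjusted p was under 0.05. Egr1 stays between -1.13 and -0.94 and Fosl2 between 0.31 and 0.43, whereas Fos moves from 0.44 without siScr replicate 1 to -0.12 without siScr replicate 2.

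FPKM are scaled by transcript length, so levels can be set side by side between genes. In siScr cells the order by mean FPKM was Jun (48.1), Junb (47.1), Jund (38.2), Fosl2 (32.6), Fos (22.3), Egr1 (10.9), Fosl1 (1.79), Egr2 (1.37), Egr3 (0.688) and Fosb (0.643). Jun and Junb, Fosl1 and Egr2, and Egr3 and Fosb overlapped with each other in their sample values, and the other neighbours were separate. In siZBP1 cells Fosl2 (42.4) stood above Jund (31.8), and Egr2 (2.01) above Fosl1 (0.810), with separate values in both pairs. Egr3 and Fosb again overlapped. Among all tested genes, Jun and Junb were above 86.5% and 85.9% of genes by mean FPKM, Fosl2 above 81.7%, Jund above 80.2%, Fos above 70.5%, Egr1 above 37.0% and Egr2 above 6.7%.

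The summed FPKM of the JUN family was 142 and 125 in siScr and 130 and 129 in siZBP1 cells, and that of the FOS family 63.4 and 51.3 in siScr and 67.3 and 69.4 in siZBP1 cells. The JUN sums overlapped between the groups, and the FOS sums were separate and higher in siZBP1. The ratio of FOS to JUN sums was 0.447 and 0.410 in siScr and 0.516 and 0.538 in siZBP1 cells, so JUN RNA exceeded FOS RNA in every sample. The summed FPKM of the EGR family was 12.3 and 13.6 in siScr and 6.78 and 8.04 in siZBP1 cells.

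Within the families, the shares followed the changes of single genes. Fosl1 took 3.16% and 3.08% of the FOS sum in siScr and 1.29% and 1.08% in siZBP1 cells. The ratio of Fosl2 to Fosl1, the FRA genes, was 16.9 and 19.8 in siScr and 48.4 and 56.9 in siZBP1 cells. Both rest on the value of Fosl1, roughly 18 and 25 fragments in the siZBP1 samples, which may hold reads of Ccdc85b. Fosl2 took 53.6% and 60.9% of the FOS sum in siScr and 62.7% and 61.4% in siZBP1 cells. The share of Fosl2 thus differed between the siScr samples by more than between the groups. Jund took 28.9% and 28.4% of the JUN sum in siScr and 24.8% and 24.1% in siZBP1 cells, a difference larger than the spread within groups. The share of Egr1 in the EGR sum was 86.7% and 81.8% in siScr and 65.7% and 64.6% in siZBP1 cells, and that of Egr2 was 8.05% and 12.8% in siScr and 25.3% and 28.8% in siZBP1 cells. Egr1 RNA remained the most abundant EGR RNA in all 4 samples. These shares are descriptions and were not tested.

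**Figure D4:**
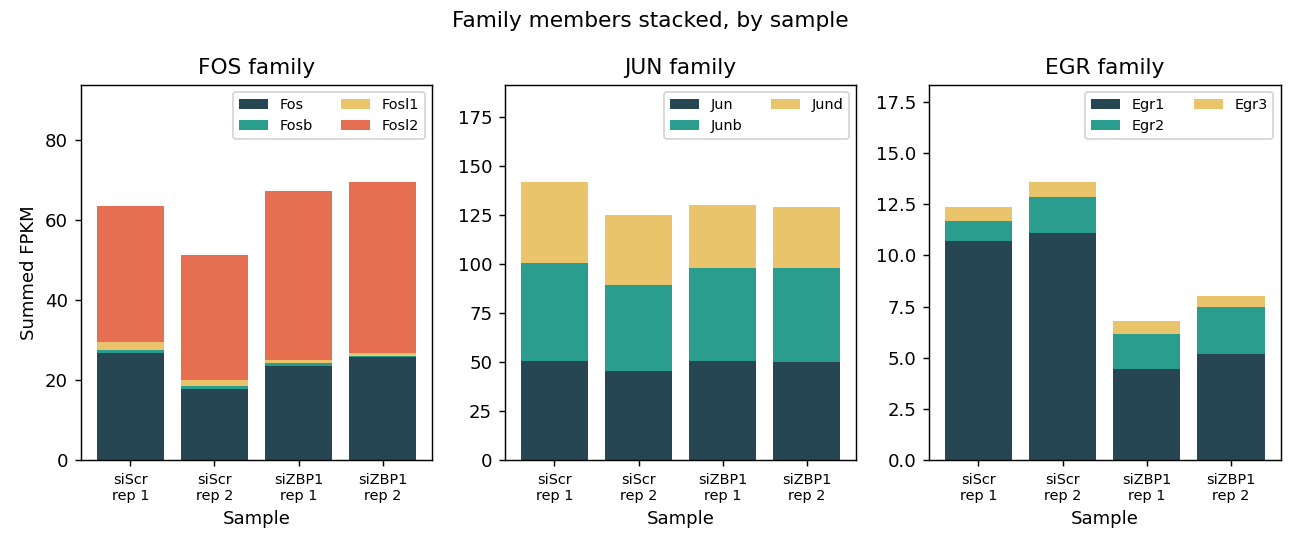
Summed FPKM of the FOS, JUN and EGR families in each sample, stacked by gene. The EGR sums are 12.3 and 13.6 in siScr and 6.78 and 8.04 in siZBP1, mostly through Egr1, while the JUN sums overlap between 125 and 142.

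The genes that work with these factors were then described from lists of known partners, regulators and targets. Of 101 genes tested over these lists, 31 (30.7%) were called lower and 16 (15.8%) higher, against 14.8% and 13.5% of all tested genes. The lists were chosen with earlier results of these data known, so these shares are no independent evidence of a direction. Leaving out siZBP1 replicate 1 gave 1 lower and 0 higher, leaving out siZBP1 replicate 2 gave 2 and 0, leaving out siScr replicate 1 gave 21 and 9, and leaving out siScr replicate 2 gave 27 and 11. Of the genes named from them, Nab2, Elk1, Maff, Map2k1, Mapk3, Mapk7, Ier3 and Vegfa were not called in any fit that left out a sample.

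Of 18 genes of the ATF, CREB, BATF, JDP and MAF families, which share the leucine zipper with AP-1, 17 were tested. The calls were 5 lower and 2 higher, against 14.8% and 13.5% of all tested genes, and the median log2 fold change was -0.07. Atf5 was at 138 and 119 FPKM in siScr and 47.4 and 50.1 FPKM in siZBP1 cells (log2 fold change -1.38, limma adjusted p = 0.00286). Atf4, the effector of the integrated stress response that osteoblasts also need, was at 167 and 144 against 96.4 and 103 FPKM (-0.64, limma adjusted p = 0.0105). The groups were separate for both, as they were for the other genes called lower. Jdp2, a repressor that competes at AP-1 sites, was at 17.3 and 17.9 against 9.64 and 10.9 FPKM (-0.72, limma adjusted p = 0.00711). Atf7 had a log2 fold change of -0.65 (limma adjusted p = 0.00613) and Maff, a small MAF protein, of -0.72 (limma adjusted p = 0.0304). Outside the rule for naming genes and chosen after their values were seen, the genes called higher were Crem (0.63, limma adjusted p = 0.00891) and Maf (0.37, limma adjusted p = 0.0137).

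Jdp2 and Batf follow Fos on chromosome 12 of GRCm38, starting 122 kb and 209 kb beyond its end. Of these neighbours only Jdp2 was called, and Batf, a partner of JUN in immune cells, was at 2.12 and 1.59 FPKM in siScr and 2.39 and 1.92 FPKM in siZBP1 cells.

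The corepressors of the EGR factors were both called lower, Nab2 only narrowly. Over all tested genes, 14.8% were called lower. Nab1 was at 20.9 and 20.9 FPKM in siScr and 12.4 and 13.2 FPKM in siZBP1 cells (log2 fold change -0.67, limma adjusted p = 0.00502). Nab2 was at 15.4 and 14.9 against 12.9 and 12.2 FPKM (-0.26, limma adjusted p = 0.0387), and its call was lost with no filter on low values (0.0553), with no variance trend (0.0529) and with any sample left out (0.0898 to 0.193). The ratio of Egr1 to Nab1 FPKM was 0.513 and 0.533 in siScr and 0.360 and 0.393 in siZBP1 cells, so Egr1 was the lower of both genes in every sample and more so in siZBP1. Egr4 was listed at 0 in 3 of the samples and at 0.0906 FPKM in siScr replicate 1.

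The 6 genes of SRF and its cofactors of the TCF and MRTF families act on the CArG boxes of immediate early genes. Of them 2 were called lower and 0 higher, against 14.8% and 13.5% of all tested genes (median log2 fold change -0.05). Srf was at 14.5 and 13.4 FPKM in siScr and 8.11 and 8.60 FPKM in siZBP1 cells (-0.67, limma adjusted p = 0.00718). Elk1, a TCF that MAP kinases phosphorylate, was at 9.87 and 10.6 against 7.01 and 6.98 FPKM (-0.49, limma adjusted p = 0.0121). The groups were separate for both genes.

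Of 17 MAP kinases and their activating kinases, 1 was called lower and 2 higher, against 14.8% and 13.5% of all tested genes. The median log2 fold change was -0.01. Mapk3, which encodes ERK1, was at 84.9 and 86.6 FPKM in siScr and 102 and 97.5 FPKM in siZBP1 cells (0.22, limma adjusted p = 0.0274). Map2k1, the kinase above it, had a log2 fold change of 0.18 (limma adjusted p = 0.0306). Mapk7, which encodes ERK5, had a log2 fold change of -0.28 (limma adjusted p = 0.0408). These 3 calls were narrow, and each was lost in every fit that left out a sample, with limma adjusted p-values from 0.0658 to 0.202. With all samples, the call of Mapk3 was lost with no variance trend (0.0682), that of Map2k1 likewise (0.0792), and that of Mapk7 with no filter on low values (0.0684) and quantile normalization (0.0560). These are RNA levels, and kinase activity was not measured.

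Of 12 MAP kinase phosphatases and feedback inhibitors, 11 were tested. The calls were 2 lower and 1 higher, against 14.8% and 13.5% of all tested genes, and the median log2 fold change was -0.15. Dusp1, a phosphatase that is itself an immediate early gene, was at 29.1 and 28.4 FPKM in siScr and 14.4 and 16.2 FPKM in siZBP1 cells (-0.87, limma adjusted p = 0.00461). Dusp10, a phosphatase of p38 and JNK, was at 4.74 and 3.95 against 2.53 and 2.21 FPKM (-0.66, limma adjusted p = 0.0214). Spred1, an inhibitor of RAS signalling, was at 34.1 and 37.2 against 43.8 and 44.6 FPKM (0.30, limma adjusted p = 0.0237).

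Of 24 other immediate early genes, 22 were tested, and they were called in both directions. The calls were 6 lower and 5 higher, against 14.8% and 13.5% of all tested genes, and the median log2 fold change was 0.02. Ctgf, a secreted matricellular protein, was at 323 and 361 FPKM in siScr and 119 and 132 FPKM in siZBP1 cells (-1.44, limma adjusted p = 0.00277). Klf4, a Krüppel-like factor, was at 15.5 and 12.5 against 5.64 and 4.75 FPKM (-1.27, limma adjusted p = 0.00679). Myc was at 23.2 and 19.7 against 9.34 and 10.1 FPKM (-1.06, limma adjusted p = 0.00526). Cyr61, like Ctgf a matricellular gene, and Klf2 had log2 fold changes of -0.94 (limma adjusted p = 0.00231) and -0.69 (limma adjusted p = 0.00923). The genes called higher, named after their values were seen, were Ier3 (0.46), Zfp36l1 (0.43), Btg2 (0.41), Plk2 (0.29) and Sgk1 (0.27).

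Of 20 known AP-1 target genes 17 were tested, with 8 called lower and 5 higher, against 14.8% and 13.5% of all tested genes. The median log2 fold change was -0.09, and the list had calls in both directions. Mmp3, a secreted protease known as a target of Fos and Jun, was at 0.0828 and 1.000 FPKM in siScr and 10.3 and 9.95 FPKM in siZBP1 cells (2.92, limma adjusted p = 0.00686). Its siScr values were low and differed 12.1-fold, and the size of its change depends on the pseudocount (4.51 with 0.1). Spp1, which encodes osteopontin and is made by both osteoblasts and macrophages, was at 1516 and 2625 against 4651 and 4447 FPKM (1.19, limma adjusted p = 0.0356). Both genes were higher in each siZBP1 sample than in either siScr sample. The call of Spp1 was lost with quantile normalization (0.97, limma adjusted p = 0.0902), no filter on low values (0.0613) and no variance trend (0.0558), and its log2 fold change was 0.79 with siScr replicate 1 left out and 1.58 with siScr replicate 2 left out. Without siZBP1 replicate 1 and 2 its limma adjusted p was 0.204 and 0.173. Among those called lower, Mgp, an inhibitor of mineralization, was at 77.9 and 64.9 FPKM in siScr and 18.0 and 20.0 FPKM in siZBP1 cells (-1.85, limma adjusted p = 0.00279). Ccnd1, cyclin D1, was at 107 and 108 against 49.3 and 52.5 FPKM (-1.07, limma adjusted p = 0.00221). Ccl2 (0.91), Hmox1 (0.56) and Vegfa (0.29) were the others called higher, named after their values were seen.

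Of 12 known EGR target genes 11 were tested, and 6 were called lower and 1 higher, against 14.8% and 13.5% of all tested genes. Their median log2 fold change was -0.26. The list was chosen with earlier results of these data known, and a relation of its calls to the fall of Egr1 was not tested. Col1a1, the main collagen of bone, was at 3066 and 2520 FPKM in siScr and 1128 and 1191 FPKM in siZBP1 cells (-1.26, limma adjusted p = 0.00480). Tnc, tenascin C, was at 270 and 232 against 164 and 174 FPKM (-0.56, limma adjusted p = 0.0139). Pdgfb, a growth factor for mesenchymal cells, was at 25.4 and 21.1 against 15.7 and 15.9 FPKM (-0.53, limma adjusted p = 0.0219). For these genes and for Id3 (-0.42, limma adjusted p = 0.0165) the groups were separate. Icam1, an adhesion molecule, was the gene called higher, at 20.2 and 20.3 against 28.0 and 27.6 FPKM (0.44, limma adjusted p = 0.00667). Nab2 and Col1a2 are in this list and in others, and Col1a1 is also a mesenchymal marker. Nab2 is among the genes called lower, and its call was narrow, as given above.

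**Figure D5:**
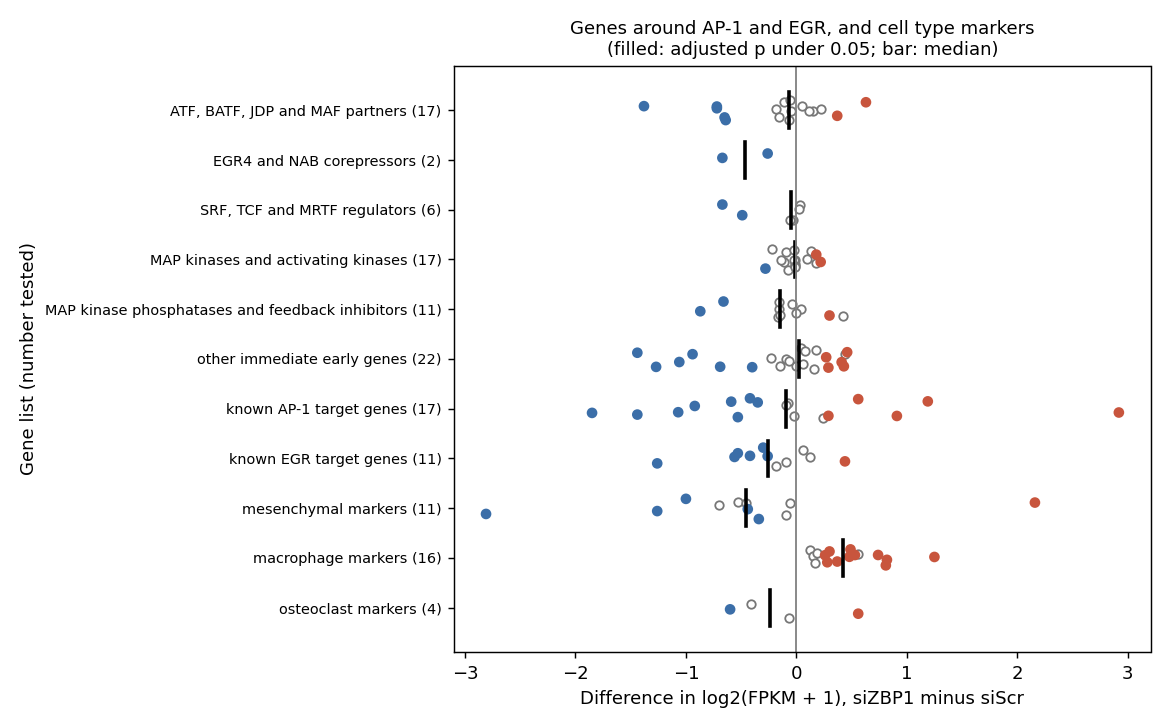
Difference in log2(FPKM + 1), siZBP1 minus siScr, of each tested gene in the lists of partners, regulators, targets and cell type markers, filled at a limma adjusted p under 0.05 (blue lower, red higher), with a bar at each list's median. The medians lie between -0.46 (mesenchymal markers and the NAB corepressors) and 0.42 (macrophage markers), and the AP-1 target genes reach from -1.85 to 2.92.

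Among the genes whose profile over the 4 samples was closest to that of Egr1, by Euclidean distance between log2(FPKM + 1) values centred over the samples, were Itga1 (distance 0.038) and Mtap (0.053). Itga1, the alpha subunit of a collagen receptor, was at 4.25 and 4.61 FPKM in siScr and 1.52 and 1.86 FPKM in siZBP1 cells. Mtap, an enzyme of methionine salvage, was at 34.6 and 34.9 against 15.4 and 17.0 FPKM. With 4 samples in 2 groups, such likeness mostly means a similar difference between the groups.

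Markers of cell types differed between the same groups of samples. Of 16 macrophage markers, 11 were called higher and 0 lower, against 13.5% and 14.8% of all tested genes. Their log2 fold changes ran from 0.12 to 1.25. The summed level of these markers was 9551 and 10658 FPKM in siScr and 15585 and 14746 FPKM in siZBP1 cells. Lyz2 alone was at 2814 and 3647 against 5871 and 5402 FPKM in this sum. The defining markers Csf1r (0.28, limma adjusted p = 0.0147) and Cd68 (0.26, limma adjusted p = 0.0247) were among those called higher. Adgre1 was at 303 and 279 FPKM in siScr and 313 and 320 FPKM in siZBP1 cells, and Ptprc at 76.6 and 76.8 against 82.7 and 88.0 FPKM, and neither was called (limma adjusted p = 0.165 and 0.0744). None of the 4 was near 0. Among the markers called, the largest changes were those of Mrc1 (1.25), Lyz1 (0.82), Lyz2 (0.81), C1qa (0.74) and C1qc (0.53).

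Of 11 mesenchymal markers, 5 were called lower and 1 higher, against 14.8% and 13.5% of all tested genes. Their summed level was 5620 and 4693 FPKM in siScr and 3230 and 3270 FPKM in siZBP1 cells. That sum was mostly Col1a1 (3066 and 2520 against 1128 and 1191 FPKM) and Col1a2 (2092 and 1806 against 1829 and 1811 FPKM). Col1a2, Pdgfra, Thy1, Ly6a and Vcam1 were not called, with log2 fold changes from -0.70 to -0.06. Cxcl12, a chemokine of marrow stroma, was at 68.4 and 54.6 against 8.06 and 7.71 FPKM (-2.81), Prrx1, a mesenchymal transcription factor, was at 51.6 and 43.5 against 23.2 and 23.1 FPKM, and Pdgfrb had a log2 fold change of -0.44. Nt5e, which encodes CD73, was at 2.73 and 5.48 against 20.8 and 21.3 FPKM (2.16), the 1 marker called higher. Of 8 osteoclast markers 4 were tested, with Ctsk called lower (-0.60) and Atp6v0d2 higher (0.56), while Calcr, Oscar, Dcstamp and Ocstamp were under 1 FPKM in every sample. The summed osteoclast markers were 118 and 117 FPKM in siScr and 124 and 128 FPKM in siZBP1 cells, and those of 4 endothelial markers, of which 1 was tested and 0 called, were 4.35 and 3.62 against 3.86 and 4.36 FPKM.

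Macrophages and mesenchymal cells both express FOS, JUN and EGR genes, so the RNA of each factor measured here is a sum over the cells present. The part of the marker changes in the values of Egr1, Fosl1 and Fosl2 was not tested.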

How the data were processed

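RNA-seq of 2 siScr and 2 siZBP1 samples of mBMSCs was used. The authors deposited FPKM per gene and sample. Per the methods, TruSeq libraries were mapped with Tophat to mm10 and FPKM values were extracted with HTSeq, whereas the submitters' processing notes name TopHat and Cufflinks. The gene annotation, the strand setting and any filter are not given in the sources used here, nor are numbers of reads. The deposited group means were not used.

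Genes were selected by symbol. The log-scale model of limma 3.58.1 (in R 4.3.3), its variance trend on, was fitted to log2(FPKM + 1). Genes entered the fit when their FPKM averaged 1 or more over the 4 samples, which 11959 did, with Benjamini-Hochberg adjustment over all of them and a threshold of 0.05. This fit was first run on simulated data drawn from its own variance estimates, with equal spread in both groups. That run cannot show how the fit does where the groups differ in spread. Fold changes in log2 are on the log2(FPKM + 1) scale, which understates the change of low genes, whereas fold values are ratios of mean FPKM. The 12 alternatives changed the pseudocount, the filter, the scaling, the variance model, the replicate block or the samples. Deviations from the group means correlated at -0.063 between same-numbered samples over 11959 genes. The labels do not say whether replicate numbers pair the samples, and the main fit has no block.

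All 10 genes and Zbp1 are named, with up to 5 genes of each list that had the largest absolute log2 fold change among those called, the defining macrophage markers and the 3 genes most like the one with the largest change. The members and lists were chosen with earlier results of these data known. Positions and overlapping genes came from GENCODE M21 and promoter windows from RefSeq (GRCm38.p6). The position of Egr1 and some genes that this rule picks are not reported here. The rough fragment numbers multiply FPKM by the length of the longest annotated transcript and the depth estimated from the spacing of the lowest values (15 and 18 M fragments for siScr, 11 and 18 M fragments for siZBP1), and no counting error was computed from them. Python 3.11.15 with pandas 2.3.3, numpy 2.4.6 and matplotlib 3.10.9 was used.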

Additional observations from a re-analysis of the deposited data

How the results depend on the processing

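In the 8 alternatives that kept all samples, 334 of 349 values of the 44 genes that the naming rule picks and limma called were past the threshold and 0 changed sign. The others fell on Nab2, Mapk7 and Spp1 (3 each), Map2k1 (2), and Mapk3, Maff, Lyz2 and Fosl1 (1 each). Among other genes named, calls were also lost for Plk2 (3), Ccdc85b, Ccl2, Cd68 and Vegfa (2 each) and Sgk1 (1). Fosl2 and Egr1 were called in each of these that tested them. Of the 10 genes, 1 was called lower with a mean FPKM of at least 5, where Fosl1 was not tested, and 1 with quantile normalization, where Fosl1 had an adjusted p of 0.0638. In the related lists 10 genes were called higher with no variance trend, against 16. Over all genes, the 1.5-fold criterion gave 1035 lower and 503 higher at a mean FPKM of at least 1, and 937 and 407 with 1 added to both means, and gave 2 lower and 0 higher of the 10 genes in both.

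The labels do not say whether the replicate numbers pair the samples, and the main fit does not use them. With a replicate block, limma called 1654 genes lower and 1465 higher, and of the 10 genes 3 lower and 1 higher, the additional one being Jund (adjusted p = 0.0420). The calls of Nab2 (0.0507), Map2k1 (0.0550) and Mapk7 (0.0645) were lost.

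With 1 sample left out, limma called 23 to 1297 genes lower and 22 to 1019 higher over all genes, 0 to 3 lower and 0 to 1 higher of the 10, and 1 to 27 lower and 0 to 11 higher in the related lists. The log2 fold change of Zbp1 was between -2.79 and -2.33, with an adjusted p of 0.0748 without siZBP1 replicate 1 and 0.0654 without siZBP1 replicate 2. Of the called genes, 69 of 88 values were past the threshold without a siScr sample and 3 of 88 without a siZBP1 sample, and 0 reversed. Among genes not called, the sign turned without siScr replicate 2 for Fos, Jun and Junb, whose log2 fold changes with a sample left out ran from -0.12 to 0.44, from -0.00 to 0.14 and from -0.08 to 0.11. The cause was not tested. The number of samples and, for Fosb, Egr3, Fosl1 and Egr2, few fragments limit these values.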
